A study of Drosophila melanogaster with 4 samples.

Results

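The Iroquois complex and the knirps complex are a pair of developmental gene clusters on the left arm of Drosophila melanogaster chromosome 3 (arm 3L). Their coverage by trimethylated lysine 27 of histone H3 (H3K27me3) was read from lists of enriched regions, called clusters below. The members were all clusters that overlap 1 of 2 windows on FlyBase release 5: 3L from 12520000 to 12760000 for ara, caup and mirr, and 3L from 20520000 to 20730000 for knrl and kni. There were 41 such clusters among 9295 in 3 lists. The Iroquois window held 6 of the 2510 clusters of replicate 1, 2 of the 1819 of replicate 2 and 2 of the 4966 of the combined list. The knirps window held 24, 3 and 4 clusters in the same lists. Both windows were chosen from measured values, because they hold a pair of the widest clusters of these same lists, ranks 7 and 5 by width in the combined list. Width, score, number of clusters and overlap are therefore given as descriptions, with no test.

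All material came from 1 group of animals: wild-type larvae of the third instar, strain Oregon-R (Oregon-R-modENCODE), without treatment. ChIP DNA was taken with a mouse monoclonal antibody against H3K27me3 from Abcam (lot3), in 2 replicates. The series also has 2 input libraries, which are not used here because no cluster list goes with them. Whole larvae were used, so each list sums over all cell types, and fewer cells with the mark and less mark per cell cannot be told apart. How many reads stand behind a list is not known. The labels do not say whether the replicates came from separate collections, so their spread may be technical.

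Polycomb repressive complex 2 places H3K27me3 through its subunit Enhancer of zeste, and the mark then spreads over broad domains that hold developmental regulators in a silent state. Such domains are known to start from Polycomb response elements, where sequence-specific factors recruit the complexes. The Iroquois genes encode homeodomain transcription factors of the TALE class. Araucan (ara, Dmel_CG10571) and caupolican (caup, Dmel_CG10605) help to prepattern sensory organs and veins of the wing disc and act largely redundantly. Mirror (mirr, Dmel_CG10601) is best known for dorsal identity in the eye and for patterning of the egg chamber. Knirps (kni, Dmel_CG4717) is an embryonic gap gene whose product has a nuclear-receptor type of DNA-binding domain. Knirps-like (knrl, Dmel_CG4761) is its close relative, and both genes act in tracheal and wing vein development.

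In the Release 6 annotation of RefSeq the 5 genes keep a simple order along 3L. The Iroquois genes run ara, caup, mirr, with 4 genes between the first and the last apart from caup, all 4 of them long non-coding RNAs. The next genes beyond mirr are SmD1, a core protein of the spliceosome, and Ptp69D, a receptor tyrosine phosphatase of axon guidance. At the knirps complex knrl comes first and kni second, with 7 genes between them, of which 6 are long non-coding RNAs and 1, CG13251, is protein coding. The next annotated genes beyond kni are cmpy and CG34260. That annotation is of another release than the clusters, so genes were assigned to a window as a whole and were not placed on single clusters.

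H3K27me3 covered both complexes almost without interruption in replicate 2, whereas in replicate 1 the Iroquois domain was again almost unbroken and the knirps domain was broken into many pieces. The Iroquois window had 77.4% of its 240.0 kb covered in replicate 1 and 79.8% in replicate 2, a mean of 78.6% ± 1.73 (SD, n = 2). The knirps window had 55.0% of its 210.0 kb covered in replicate 1 and 82.5% in replicate 2, a mean of 68.8% ± 19.4 (SD, n = 2). The order of the windows thus differed between replicates: the Iroquois window exceeded the knirps window by 22.3 percentage points in replicate 1, and the difference was -2.67 points in replicate 2. The mean difference of 9.82 points is smaller than the SD of the differences within each replicate, 17.7 points (n = 2). These shares also depend on where the windows end, since both reach past the outermost clusters.

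**Figure D1:**
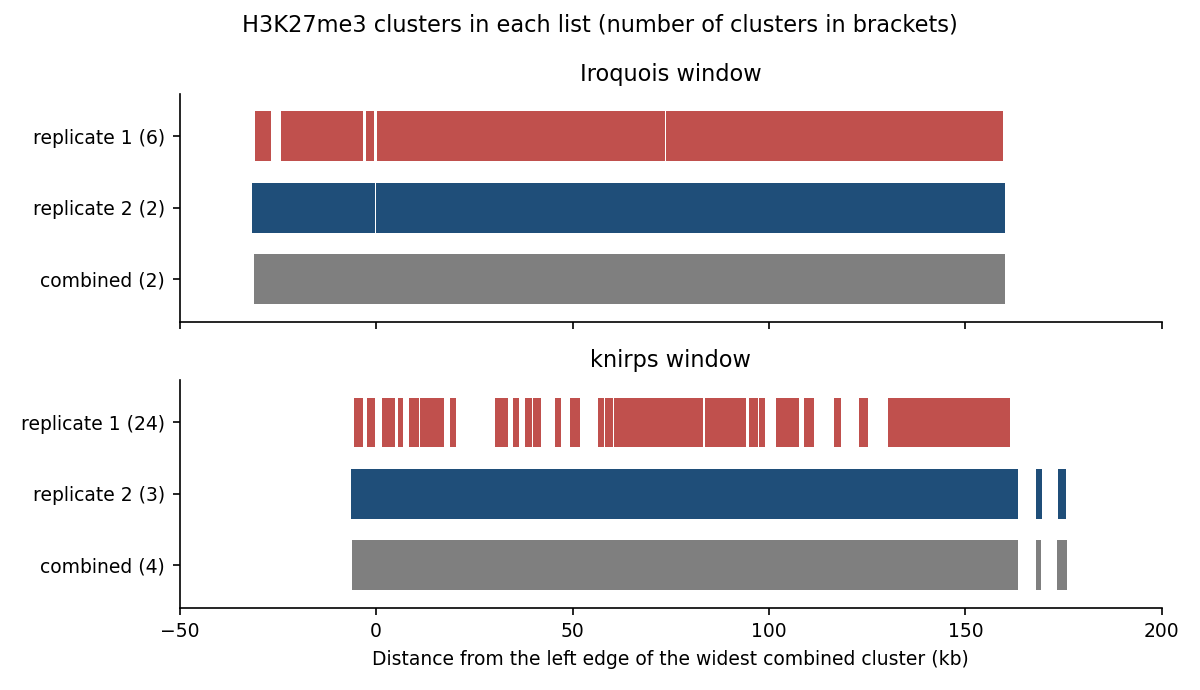
H3K27me3 clusters (filled boxes) in the Iroquois window (upper panel) and the knirps window (lower panel), one row per list, with the number of clusters in brackets. The x axis is the distance in kb from the left edge of the widest combined cluster; replicate 1 has 6 boxes at Iroquois and 24 at knirps, and the 46 bp and 17 bp breaks of the combined list are too short to be seen at this scale.

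The Iroquois domain had the same outline in each list. Replicate 2 showed a 31.3 kb cluster from 12533757 to 12565079 and a 160.2 kb cluster from 12565462 to 12725660. Replicate 1 divided the left cluster into pieces of 4.02, 20.8 and 2.00 kb and the right one into pieces of 73.3, 64.2 and 21.4 kb. The right-hand pieces were separated by gaps of only 304 and 94 bp, so that 99.3% of the 160.0 kb combined cluster (12565481 to 12725501) was covered in replicate 1 and 100% in replicate 2. The widest replicate 1 gap of the window, 2509 bp from 12538744 to 12541252, lay in the left cluster. In all, the 6 replicate 1 clusters spanned 190.3 kb and covered 97.6% of it.

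A short break divided the Iroquois domain in all 3 lists. It was 902 bp wide in replicate 1 (12564900 to 12565801), 382 bp in replicate 2 (12565080 to 12565461) and 46 bp in the combined list (12565435 to 12565480). The replicate 2 gap lay wholly inside the replicate 1 gap, and it shared 27 bp with the combined gap. Scores differed between the clusters on either side of this break. Given once per cluster, they cannot show a change at the break itself. The deposited score is a number per cluster on a scale that neither labels nor headers state, and it is compared only within a list. To the right of the break the replicate 1 scores were 1.05 to 1.92 and to the left 0.572 to 0.904. In replicate 2 the right cluster scored 2.59 and the left one 1.34, and in the combined list the values were 2.24 and 1.10. All 3 lists thus gave the 160 kb side a higher score than the 31 kb side, but the wider members also tended to score higher. Among the 6 Iroquois clusters of replicate 1, width and score had a Spearman correlation of 0.94.

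The knirps domain was a single cluster of 169.8 kb in replicate 2, from 20534992 to 20704791. In replicate 1 the same stretch held all 24 clusters, of which 19 were narrower than 5 kb and only 2 reached 20 kb. These 2 were the widest piece, 30.9 kb from 20671763 to 20702646, and a piece of 22.5 kb from 20602077 to 20624541. The widest piece made up 26.7% of the marked length of replicate 1, against 98.0% for the widest cluster of replicate 2. At Iroquois the same share was 39.5% in replicate 1 and 83.6% in replicate 2. The combined list showed a 6.22 kb cluster and a 163.4 kb cluster (20541406 to 20704817) that were 17 bp apart. At that point replicate 1 had a gap of 1835 bp (20541016 to 20542850) and replicate 2 had none, so the break was not shared by both replicates as the Iroquois break was.

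Within the 163.4 kb combined cluster at knirps, replicate 1 covered 68.1% and replicate 2 covered 100.0% after rounding, with 0.026 kb missing at its right end. The part missing from replicate 1 came to 52.1 kb, against 1.19 kb at Iroquois. Of the missing length, 48.5 kb lay in 21 gaps between clusters. Their median width was 1424 bp, and 8 of the 21 were under 1 kb. The widest gap of all ran over 9877 bp from 20561702 to 20571578. Every one of these 21 gaps was filled completely in replicate 2, and so were the 2 Iroquois gaps inside the combined cluster. Replicate 2 had a single cluster across these gaps in each domain, so this follows from its outline and adds no separate support.

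**Figure D2:**
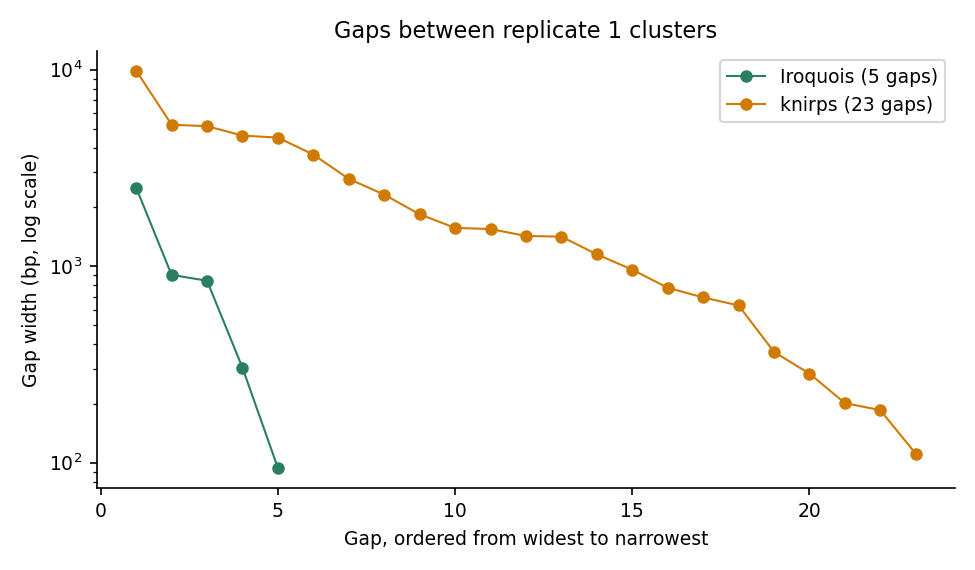
Width of every gap between neighbouring replicate 1 clusters, ordered from widest to narrowest, on a log scale in bp, for the Iroquois window (5 gaps) and the knirps window (23 gaps). The widest gap was 2509 bp at Iroquois and 9877 bp at knirps; 4 of the 5 Iroquois gaps and 9 of the 23 knirps gaps were under 1 kb.

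Joining neighbouring clusters over gaps under 1, 2 or 5 kb left the knirps domain of replicate 1 in more pieces than the Iroquois domain. With gaps under 1 kb joined, replicate 1 had 2 pieces in the Iroquois window and 15 in the knirps window. With gaps under 2 kb joined the numbers were 2 and 9, and under 5 kb they were 1 and 4. At 10 kb each window was a single piece in replicate 1. In replicate 2 the Iroquois window was 1 piece from 1 kb on. The knirps window stayed at 3 pieces until 5 kb because it held a pair of narrow clusters to the right of the domain.

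The gaps of replicate 1 at knirps were not spread evenly. Bins of 10 kb were counted from the left edge of the combined cluster, 16 full bins in each domain. All 16 Iroquois bins were at least 95.5% covered in replicate 1, and 12 were covered completely. At knirps 3 of 16 bins were covered completely, 6 reached 90% and 4 lay below 50%, with a lowest value of 2.96% between 20 and 30 kb. Replicate 2 covered all bins of both domains completely. High knirps values formed 2 blocks. In the first, between 60 and 90 kb, the bins had 96.3%, 100% and 93.7%. In the second, between 130 and 160 kb, they had 96.4%, 100% and 100%. Between these blocks coverage went down to 32.1% and 22.5% in the bins from 110 to 130 kb. Left of the first block the 6 bins ranged from 2.96% to 83.2%.

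**Figure D3:**
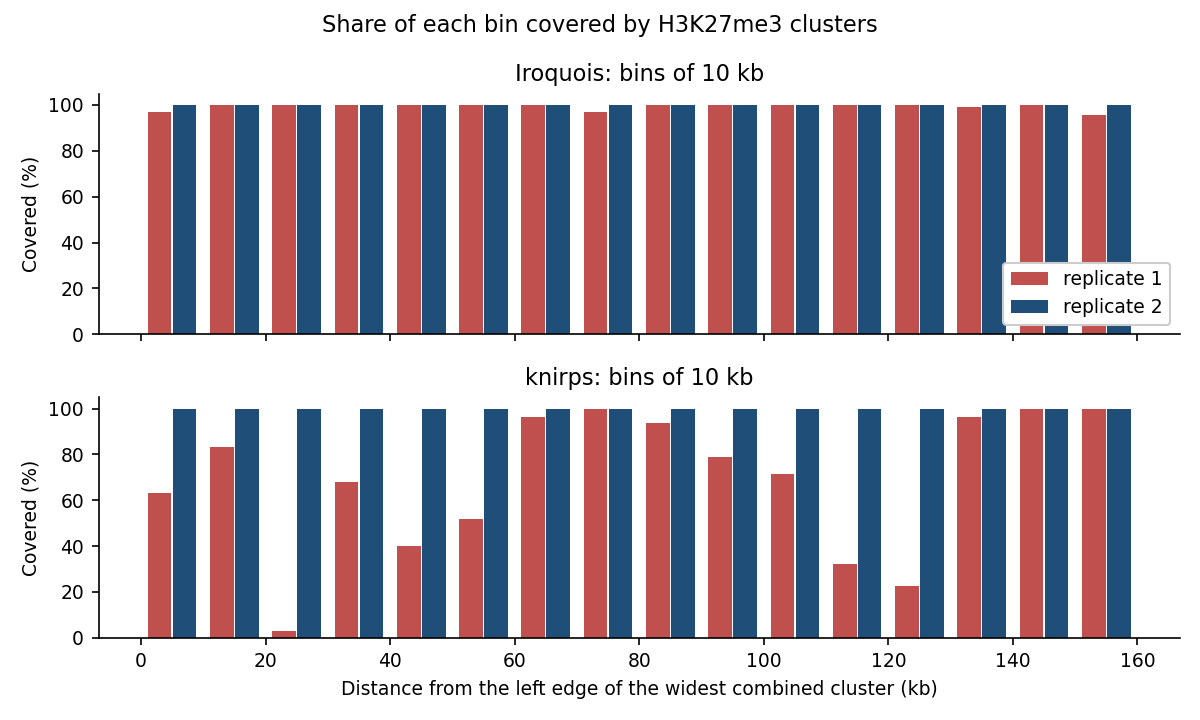
Share of each 10 kb bin (percent, from 0) covered by replicate 1 and by replicate 2, in the Iroquois domain (upper panel) and the knirps domain (lower panel), against the distance in kb from the left edge of the widest combined cluster. Replicate 1 stays at or above 95.5% at Iroquois, and at knirps it dips to 2.96% between 20 and 30 kb and to 22.5% between 120 and 130 kb.

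With clusters less than 1 kb apart joined, the first block corresponded to a stretch of 42.5 kb (20597857 to 20640335) made of 6 replicate 1 clusters that covered 94.7% of it. The second block was the 30.9 kb piece alone. The other 13 joined stretches of the knirps window were 1.47 to 8.93 kb wide. At Iroquois the same joining gave a stretch of 183.8 kb made of 5 clusters, 98.8% covered, and the 4.02 kb piece at the left end.

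All replicate 1 sequence of both windows lay inside replicate 2 clusters: 6 of 6 Iroquois clusters and 24 of 24 knirps clusters were covered over their whole length. Over the whole list, 62.5% of replicate 1 clusters shared at least 1 bp with replicate 2. Among the narrow ones under 5 kb, 2 of 2 at Iroquois and 19 of 19 at knirps were found in replicate 2, beside 56% of such clusters in the list. The windows were chosen for a wide cluster into which narrow pieces can fall, so nothing is read from these counts. In the other direction 2 of 2 Iroquois clusters and 1 of 3 knirps clusters of replicate 2 were found in replicate 1, beside 51.2% of the list. The 2 knirps clusters not found were both under 5 kb, a width at which 38% of replicate 2 clusters were found in replicate 1.

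Measured in base pairs, sequence covered in both replicates made up 96.9% of the sequence covered in either at Iroquois and 66.7% at knirps, a difference of 30.2 points. Outside both windows the same index was 65.1%, but there clusters of all widths entered, narrow ones included. Of the 12.4 Mb covered in replicate 1 there, 10.7 Mb was shared with replicate 2. The value is therefore not one for wide domains like these. Because replicate 1 added no sequence of its own in either window, the index equals the share of replicate 2 that replicate 1 recovered. Replicate 2 alone covered 5.87 kb at Iroquois and 57.6 kb at knirps. No test of this difference was made, since the windows were chosen on the same lists and both are read from the same 2 libraries.

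The outer edges of the domains lay close together in the replicates. The left edge was that of the outermost cluster of the window. The right edge was that of the last cluster touching the widest combined cluster. Narrow replicate 2 clusters further right in the knirps window were thus left out. The left edge of the Iroquois domain differed by 972 bp (12534729 in replicate 1, 12533757 in replicate 2) and its right edge by 626 bp (12725034 and 12725660). At knirps the left edge differed by 773 bp (20535765 and 20534992) and the right edge by 2145 bp (20702646 and 20704791). Replicate 2 reached further out at all 4 edges. Of the 57.6 kb of the knirps window covered in replicate 2 alone, 51.3 kb lay between the outer edges of replicate 1, in its 23 gaps. The last 3.41 kb of the combined cluster were 36.4% covered in replicate 1.

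To the right of the knirps domain replicate 2 had narrow clusters of 1405 bp (20709402 to 20710806) and 1987 bp (20715074 to 20717060), with scores of 0.494 and 0.601, below the list median of 0.665. The combined list had counterparts of 1305 and 2560 bp, and replicate 1 had none. The gap before the first was 4610 bp in replicate 2. Inside the Iroquois window no list had such narrow clusters to the right of the domain. The nearest clusters outside the windows show how the edges of the rule fall. At the right side of the knirps window a replicate 1 cluster of 1592 bp lay 1.19 kb outside, and the nearest member inside ended 27.4 kb before the edge. At the left side of the Iroquois window the nearest outside cluster of replicate 1 was 1323 bp wide and 50.5 kb away, and the nearest of replicate 2 was a 54.6 kb domain 55.0 kb away, with a score of 2.51. Members inside began 14.7 kb and 13.8 kb from that edge in the same lists.

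By its highest score and by its width-weighted mean score, Iroquois stood above knirps in the lists compared. The highest-scoring Iroquois cluster had 1.92 in replicate 1, 2.59 in replicate 2 and 2.24 in the combined list, and the highest-scoring knirps cluster had 1.18, 1.54 and 1.23. These were ranks 30, 38 and 68 at Iroquois and ranks 168, 163 and 240 at knirps. Weighted by width, the mean score of the Iroquois clusters was 1.58 in replicate 1 and 2.38 in replicate 2, and that of the knirps clusters was 0.913 and 1.52. In replicate 2 these clusters were of like width, 160.2 kb at Iroquois and 169.8 kb at knirps, and the wider of them had the lower score.

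**Figure D4:**
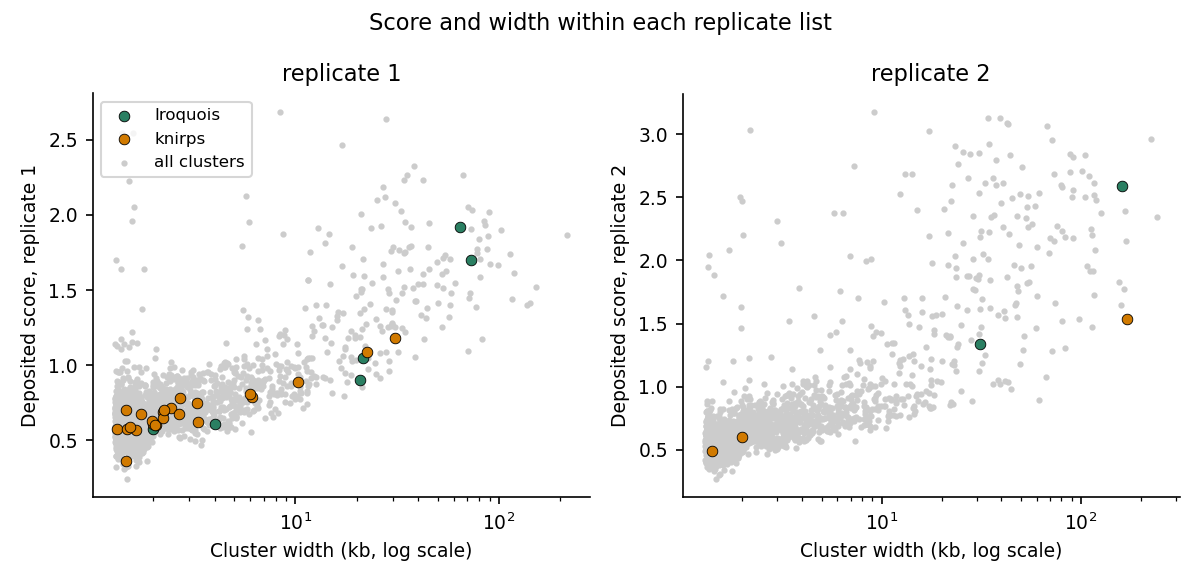
Deposited score against cluster width in kb (log scale) for all clusters of replicate 1 (left) and replicate 2 (right), with the Iroquois and knirps clusters picked out in colour. In replicate 2 the 160.2 kb Iroquois cluster lies at 2.59 and the 169.8 kb knirps cluster at 1.54; scores are not comparable between the panels.

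The narrow pieces of the knirps domain in replicate 1 had scores in the range of other narrow clusters. The 19 pieces under 5 kb had a median score of 0.630 and ranged from 0.364 to 0.780. The 170 narrow replicate 1 clusters inside other replicate 2 clusters of 50 kb or more had a median of 0.642, and the 1950 narrow clusters elsewhere had 0.638. The lowest knirps piece, at 20587029 to 20588498 with 0.364, was rank 2501 of the list. Of the 24 knirps pieces 13 reached the list median of 0.663, and at Iroquois 4 of 6 did. Width and score of the 24 knirps pieces had a Spearman correlation of 0.82.

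Set against the other widest domains by covered share, Iroquois was among the most complete in replicate 1 and knirps the least complete. The combined list held 26 clusters of 100 kb or more. Replicate 1 covered 99.3% of the Iroquois cluster, more than 23 of the other 24, and 68.1% of the knirps cluster, less than all 24, whose median was 96.2% and whose lowest was 68.2%. Replicate 1 had 3 clusters in the Iroquois domain and 22 in the knirps domain, against a median of 5 and a highest value of 22 in the others. By its widest single piece Iroquois did not stand out. That piece made up 45.8% of the Iroquois cluster, more than in only 8 of the other 24, whose median was 57.0%. At knirps it made up 18.9%, less than in all 24. The 2 domains were close in width, at 160.0 and 163.4 kb. By score Iroquois stood above 19 of the other 24 and knirps above 1.

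Across these wide domains, a low score went with more replicate 1 pieces. In the combined list the Spearman correlation of score with the number of replicate 1 clusters was -0.91 over 26 domains, and it was also -0.91 over the 24 without Iroquois and knirps. Score and the share covered in replicate 1 were less closely related, with 0.69 over the 26 and 0.66 over the 24. The width of the domain and the number of replicate 1 clusters had a Spearman correlation of 0.16 over the 26. The combined score shares its libraries with replicate 1, so the relation was also read from replicate 2, which had 26 clusters of 100 kb or more. There the replicate 2 score and the number of replicate 1 clusters had a correlation of -0.92 over the 26 and -0.91 over the other 24. For the share covered in replicate 1 the values were 0.70 and 0.66. The Iroquois cluster of replicate 2 held 3 replicate 1 clusters at a score of 2.59, and the knirps cluster held 24 at a score of 1.54, the second-lowest score of the 26. The lowest, 1.48, belonged to a 114.3 kb cluster of 3L from 10917059 to 11031349 with 14 replicate 1 clusters. Both readings count pieces of the same replicate 1 list in largely the same domains, so the second is not independent of the first. The domains share the same 2 libraries and the same unknown depth, and the part of depth was not tested.

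**Figure D5:**
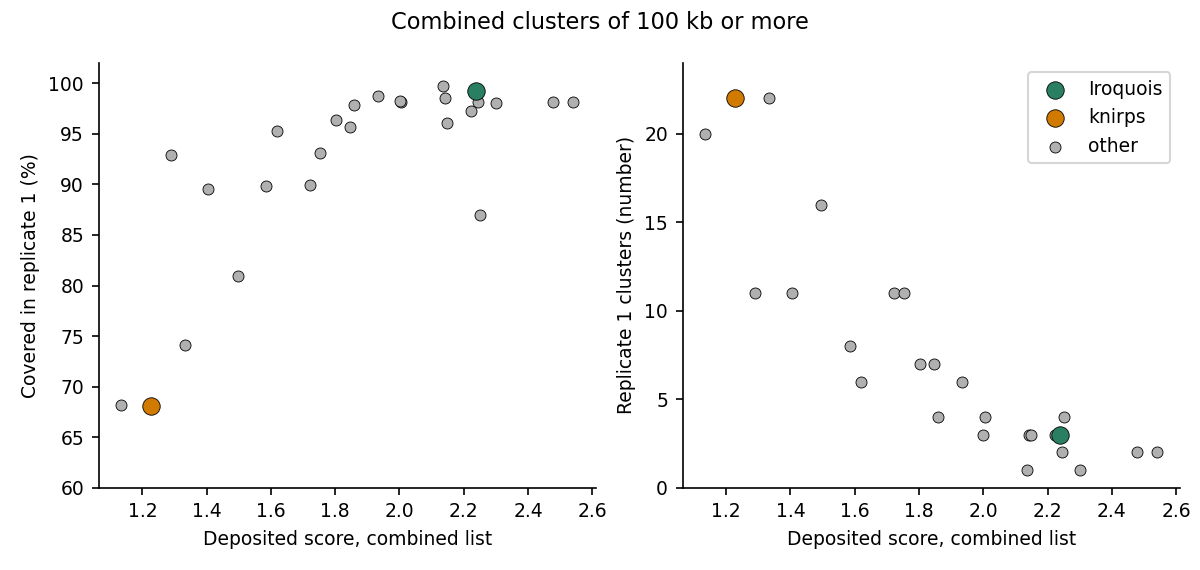
Combined clusters of 100 kb or more, with the deposited score of the combined list on the x axis and, on the y axis, the percent covered in replicate 1 (left, axis from 60) and the number of replicate 1 clusters (right). Iroquois lies at a score of 2.24 with 99.3% covered and 3 clusters, and knirps at 1.23 with 68.1% and 22 clusters, near the low-score end of the other 24 clusters.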

How the data were processed

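Values were read from 3 deposited lists of enriched regions, namely replicate 1, replicate 2 and a combined list. Their coordinates belong to FlyBase release 5, per the file headers. Bowtie 0.12.7 is named in the submitters' processing notes. The caller and its threshold, the use of input and the origin of the combined list were not given in the sources used here. The score of each cluster is the authors' deposited value, of unknown scale, and serves only to describe, rank or filter clusters within a list.

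Windows, members and measures were chosen with earlier results of these data known. Clusters sharing at least 1 bp with a window were taken, and overlap was counted in base pairs. Named items were the 5 genes, and in each window the widest and highest-scoring clusters, the widest gaps and the clusters beside the window edges. Other single clusters, gaps and bins were named after their values were seen. The 26 combined clusters of 100 kb or more served as comparison. Gene order came from RefSeq names of Release 6, whose coordinates were not used on the clusters. The interval arithmetic was tested on simulated data. No p-value was computed. Scripts ran under Python 3.11.15 with scipy 1.17.1, pandas 2.3.3, numpy 2.4.6 and matplotlib 3.10.9.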

Additional observations from a re-analysis of the deposited data

How the results depend on the processing

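Alternatives were a join of clusters less than 5 kb apart, the upper part of each list by score (at or above its median), a minimum width of 5 kb, and the span of the widest combined cluster in place of the window. The differences between the windows were added after the data were seen. With the join, the overlap of the replicates was 99.2% at Iroquois and 80.5% at knirps (difference 18.6 points), the clusters numbered 1 and 4 in replicate 1 and 1 and 1 in replicate 2, and the widest replicate 1 piece made up 100% and 55.5% of the marked length. With the score filter, the overlap at knirps was 55.7% (difference 38.1 points), with 13 clusters in replicate 1 and 1 in replicate 2. With the minimum width, the overlap at knirps was 44.6% (difference 49.2 points), with 5 clusters in replicate 1, 1 in replicate 2 and a widest piece of 40.8%. Over the span of the widest combined cluster, Iroquois was 99.6% covered with an overlap of 99.3%, 3 clusters in replicate 1 and 1 in replicate 2. Over its own such span, knirps was 84.0% covered with an overlap of 68.1%, 22 clusters in replicate 1 and 1 in replicate 2. These settings remove, join or leave out sequence by construction. With 1 replicate left out, the covered share ranged from 77.4% to 79.8% at Iroquois and from 55.0% to 82.5% at knirps. The difference in covered share, 9.82 points as reported, was 1.37 points with the join, 14.4 with the score filter, 18.9 with the minimum width and 15.6 over the span of the widest combined cluster. It reversed to -2.67 points without replicate 1, and was 22.3 points without replicate 2. From first to last cluster, replicate 2 covered 99.8% of the span at Iroquois and 95.1% at knirps. The sign in replicate 2 thus depends on where the windows end. The cause of the difference between the replicates was not tested. Requiring 50% of a cluster to be covered left 6 of 6 Iroquois and 24 of 24 knirps clusters of replicate 1 found in replicate 2. No paired analysis was possible because only ChIP samples enter and nothing was tested between groups. What depth limits was not measured, since read numbers are unknown.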
